A study of Mus musculus with 6 samples.

Results

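The genes described here are 39 genes that mark neurons of the cortex, out of 53379 genes listed for RNA of small extracellular vesicles (sEV), the membrane-bound particles that cells release. They were chosen by symbol and fall into 4 classes: 11 genes of the neuronal cytoskeleton and growth cone, 5 other pan-neuronal genes, 9 genes of excitatory (glutamatergic) cortical identity and 14 genes of inhibitory (GABAergic) identity. All 39 symbols were found in the deposited tables. The vesicles came from cultures of embryonic cortical neurons of wild-type (WT) mice. HypEV, 3 libraries, are vesicles of neurons given the treatment that the labels call OGD/R, which the series text describes as hypoxic. NorEV, 3 libraries, are vesicles of control neurons, which the series text describes as normoxic. The labels do not say what else OGD/R involved, how vesicles were isolated. Nor do they say that the replicates of a group are different cultures, and a p-value here may therefore reflect technical spread between libraries alone.

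Levels are in FPKM, fragments counted on a gene scaled by its length and by the depth of the library. The steps between values gave 1320916 to 2141611 fragments counted on genes in HypEV and 1092724 to 1494499 in NorEV. The libraries were unlike each other in 1 respect that touches every value below. Gm23935, a short non-coding entry, took 49.5%, 1.95% and 24.4% of these fragments in HypEV 1, 2 and 3, against 4.31%, 0.554% and 0.297% in NorEV 1, 2 and 3. The median tested protein-coding gene stood at 3.86, 8.83 and 5.49 FPKM in HypEV 1, 2 and 3, and at 7.32, 7.83 and 8.79 FPKM in NorEV 1, 2 and 3. In bulk vesicle RNA, fewer vesicles from a kind of cell and less RNA per vesicle cannot be told apart.

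Microtubules of tubulin are stabilised by proteins such as MAP2 in dendrites and tau in axons and are destabilised by stathmins, and neurofilaments fill and widen the axon. Excitatory neurons of the cortex arise from the dorsal telencephalon under bHLH factors of the NeuroD family and layer factors such as TBR1, FEZF2 and CTIP2. Inhibitory interneurons arise from the ventral telencephalon under DLX homeodomain factors, NKX2-1 and LHX6, make GABA with the glutamate decarboxylases GAD1 and GAD2, and are told apart by peptides and calcium-binding proteins. In cultured neurons many of the cytoskeletal mRNAs are among the most abundant of all.

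In the vesicles each of the 39 genes was detected in some library, and 35 of them in all 6. The other 4, Sst, Pvalb, Dlx5 and Nkx2-1, were at 0 in at least 1 library. The median of the 39 genes was close to that of protein-coding genes. The median of all 39 was 3.76, 7.92 and 5.30 FPKM in HypEV 1, 2 and 3, against 7.23, 6.88 and 7.77 FPKM in NorEV 1, 2 and 3. These medians were 0.879 to 0.987 times that of the tested protein-coding genes of the same library. A list of 30 genes of liver, muscle, heart, pancreas, kidney, skin, lung, gut and testis had higher medians, of 5.03, 11.1 and 6.50 FPKM in HypEV and 8.19, 12.04 and 10.3 FPKM in NorEV. The ratio of the median of the 39 genes to that of the non-neural list was 0.572 to 0.882 over the 6 libraries. Olfactory receptor genes, which neurons of the cortex are not known for, had lower medians, of 0.934, 2.74 and 1.63 FPKM in HypEV and 2.39, 2.54 and 2.84 FPKM in NorEV. The median of the 39 genes was 2.71 to 4.03 times as high as theirs. Theirs was taken over all 1134 such genes, of which 930 were tested, while the protein-coding median was over tested genes alone.

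At a mean of 1 FPKM or more stood 38 of the genes, and of these 19 had a median rank above the 50th percentile of tested protein-coding genes, 10 above the 75th and 6 below the 25th. Nkx2-1 was below this minimum and was not tested. Celf4 alone had a median rank above the 90th percentile. Fragments followed gene length: over the 36 genes whose fragments could be recovered, mean fragments and length had a Spearman rho of 0.80, against 0.67 over 18869 protein-coding genes, while mean FPKM and length had 0.12 and 0.04. These correlations run across genes that share the same 6 libraries, and are given as a description.

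**Figure D1:**
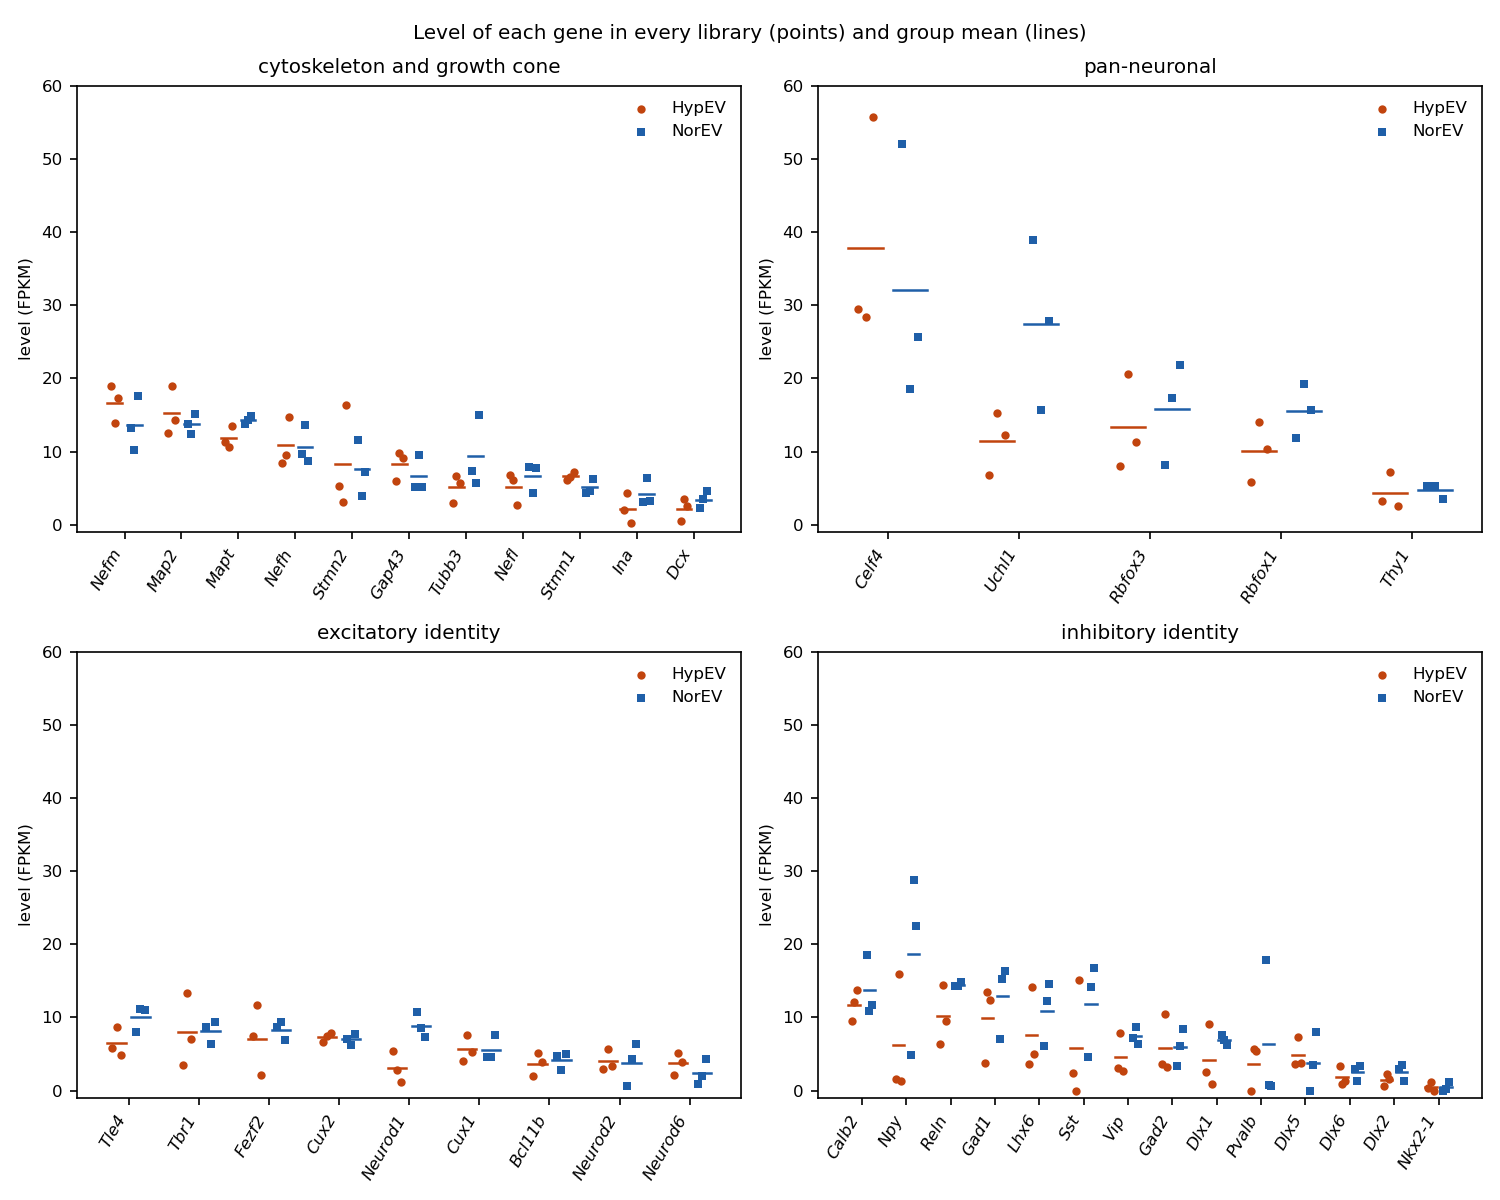
FPKM of each gene in the 3 HypEV libraries (circles) and the 3 NorEV libraries (squares), by class and in falling order of the mean, with lines at group means. Celf4 has the highest mean in both groups, Uchl1 stands out in NorEV (27.5 FPKM) and not in HypEV (11.4 FPKM), Nkx2-1 lies near 0, and the groups of nearly all genes overlap.

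Over the 6 libraries the highest mean of the cytoskeletal class was that of Nefm, the medium neurofilament chain, at 18.9, 13.9 and 17.3 FPKM in HypEV 1, 2 and 3, against 13.2, 10.2 and 17.6 FPKM in NorEV 1, 2 and 3. In NorEV alone Mapt, at a mean of 14.3 FPKM, and Map2, at 13.8 FPKM, were above Nefm, at 13.7 FPKM. Nefh, the heavy chain, had 8.42, 9.53 and 14.8 FPKM in HypEV, against 9.62, 13.6 and 8.71 FPKM in NorEV. Nefl, the light chain on which the others assemble, had 6.77, 6.14 and 2.69 FPKM in HypEV and 7.85, 4.40 and 7.72 FPKM in NorEV. The light chain was thus below the medium chain in all 6 libraries. Ina, alpha-internexin, the neurofilament subunit that appears early in development, had 2.02, 4.27 and 0.234 FPKM in HypEV, against 3.11, 6.33 and 3.30 FPKM in NorEV. The 4 levels added to 33.8 to 36.1 FPKM in HypEV and 33.8 to 37.4 FPKM in NorEV, a narrow range beside the medians of protein-coding genes given above.

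The neurofilament chains differ in their tails. The heavy chain carries a long tail of lysine-serine-proline repeats, known sites of phosphorylation. The longest open reading frame of Nefh (chromosome 11, 4938754 to 4948064, minus strand, GRCm38) held 51 such codon triplets in 1090 codons, that of Nefm (chromosome 14, 68082590 to 68124846, minus strand) held 4 in 848, and those of Nefl and Ina held 0. The stretch of 30 codons with most of them is shown for both genes, since the repeat is what sets the heavy chain apart, with the triplets in capitals.
Nefh: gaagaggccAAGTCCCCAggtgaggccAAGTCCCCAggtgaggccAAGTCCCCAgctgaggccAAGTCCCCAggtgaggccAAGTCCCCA
Nefm: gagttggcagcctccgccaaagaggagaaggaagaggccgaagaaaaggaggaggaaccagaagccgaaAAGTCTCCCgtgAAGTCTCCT
Neither transcript of Nefh nor that of Nefl or Ina shared a run of 50 bases with another gene, and that of Nefm shared 1. Nefl and Nefm lie on opposite strands and share 1108 exon bases, which are 32.8% of the exon bases of Nefl and 19.2% of those of Nefm. Whether the counting kept strand is not stated in the sources used here, so fragments of that overlap may not be told apart.

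Map2, which marks dendrites and the cell body, had 12.5, 19.0 and 14.3 FPKM in HypEV 1, 2 and 3, against 13.7, 12.4 and 15.2 FPKM in NorEV 1, 2 and 3. Mapt, which codes for tau, had 11.3, 10.7 and 13.5 FPKM in HypEV and 13.8, 14.3 and 14.9 FPKM in NorEV. Tau was in all 3 HypEV libraries below all 3 NorEV libraries, by little. Its log2 fold change was -0.26 ± 0.38 SE (adjusted p = 0.858, limma). Fold changes here are on the log2(FPKM + 1) scale unless another fit is named, and this scale understates those of low genes.

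Tubb3, the neuron-specific beta-tubulin, had 2.9996, 6.67 and 5.67 FPKM in HypEV, against 7.35, 5.68 and 15.0 FPKM in NorEV. The high value of NorEV 3 rests on 42 fragments, and the other 5 libraries had 12 to 18. Dcx, doublecortin, the microtubule protein of migrating young neurons, was low at 0.566, 3.51 and 2.50 FPKM in HypEV and 2.22, 3.51 and 4.57 FPKM in NorEV. Doublecortin ranked between the 10.8th and the 23.4th percentile of tested protein-coding genes. Gap43, a growth-cone protein of extending axons, had 5.92, 9.74 and 9.06 FPKM in HypEV, against 5.16, 9.47 and 5.18 FPKM in NorEV.

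The stathmins act on free tubulin. Stmn1 had 6.17, 6.53 and 7.14 FPKM in HypEV 1, 2 and 3, against 4.32, 4.67 and 6.31 FPKM in NorEV 1, 2 and 3. These values rest on 10 to 14 fragments in HypEV and 5 to 10 in NorEV. Of the distinct 50-base runs of its transcript 36.5% were also found in other genes, the largest share among the 39 genes, so how the authors' counting split its fragments is uncertain. Stmn2, the stathmin of growing axons, had 5.34, 3.04 and 16.4 FPKM in HypEV and 11.5, 3.94 and 7.25 FPKM in NorEV. HypEV 3 and NorEV 1 were high and HypEV 2 and NorEV 2 low.

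Celf4, an RNA-binding protein of neurons, was the highest of all 39 genes. It had 29.5, 28.4 and 55.7 FPKM in HypEV 1, 2 and 3, against 52.0, 18.6 and 25.6 FPKM in NorEV 1, 2 and 3. The highest values stood in HypEV 3 and NorEV 1, and the groups overlapped. Its spread within groups was 7.18 times counting error, the largest of the 36 genes with recovered fragments, where the median was 2.17, against 2.04 over 18869 protein-coding genes. This ratio tends to be larger where more fragments are counted. Uchl1, a ubiquitin hydrolase very abundant in neurons, had 6.74, 15.3 and 12.2 FPKM in HypEV, against 38.9, 15.6 and 27.9 FPKM in NorEV. The HypEV libraries were all lower, with HypEV 2 close to NorEV 2. Uchl1os, on the opposite strand, covers 18.1% of its exon bases and had 1.66, 6.16 and 15.3 FPKM in HypEV, against 8.15, 23.9 and 25.02 FPKM in NorEV.

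Rbfox3, the splicing factor known as NeuN, had 8.005, 20.6 and 11.3 FPKM in HypEV, against 8.13, 17.3 and 21.9 FPKM in NorEV. Rbfox1, a splicing factor of the same family, had 5.83, 14.1 and 10.4 FPKM in HypEV and 11.9, 19.2 and 15.7 FPKM in NorEV. HypEV 1 was the lowest library for both. Thy1, a surface protein that rises as neurons mature, had 3.23, 7.18 and 2.62 FPKM in HypEV, against 5.27, 5.30 and 3.47 FPKM in NorEV.

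Among the excitatory genes, Neurod1, a bHLH factor of newborn neurons, had 5.48, 2.79 and 1.11 FPKM in HypEV 1, 2 and 3, against 10.7, 8.56 and 7.36 FPKM in NorEV 1, 2 and 3. Every HypEV library was below every NorEV library. In fragments these values were 32, 11 and 4 in HypEV and 32, 33 and 30 in NorEV, so in HypEV 1, of which Gm23935 took 49.5%, as many fragments were counted as in NorEV 1. Gm26755, a non-coding RNA on the opposite strand that covers 5.64% of its exon bases, was far higher, at 189, 199.7 and 365 FPKM in HypEV and 599, 379 and 312 FPKM in NorEV, and Cerkl on the same strand covers 7.37%. Fragments of these overlaps may not be told apart. The related factors did not share this order. Neurod2 had 2.97, 5.72 and 3.37 FPKM in HypEV, against 0.583, 4.28 and 6.39 FPKM in NorEV, and Neurod6 had 2.17, 5.15 and 3.87 FPKM in HypEV, against 0.851, 1.97 and 4.36 FPKM in NorEV.

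The layer genes lay close to each other. Tle4, a corepressor of corticothalamic neurons, averaged 6.44 ± 1.99 FPKM in HypEV and 10.1 ± 1.77 FPKM in NorEV (SD, n = 3 each). Tbr1, of deep-layer neurons, averaged 7.99 ± 5.002 and Fezf2, which specifies neurons that project below the cortex, 7.12 ± 4.76 FPKM in HypEV, against 8.19 ± 1.58 and 8.29 ± 1.26 FPKM in NorEV. Bcl11b, which codes for CTIP2, averaged 3.66 ± 1.60 FPKM in HypEV and 4.16 ± 1.19 FPKM in NorEV. Of the upper-layer factors, Cux2 kept within 6.28 and 7.93 FPKM over the 6 libraries, and Cux1 averaged 5.67 ± 1.81 FPKM in HypEV and 5.61 ± 1.77 FPKM in NorEV. In all of these except Tle4 the group means differed by less than the SD of either group.

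Among the inhibitory genes, Gad1 had 3.76, 13.4 and 12.4 FPKM in HypEV 1, 2 and 3, against 7.12, 15.3 and 16.4 FPKM in NorEV 1, 2 and 3. Gad2 had 3.66, 10.5 and 3.16 FPKM in HypEV, against 3.35, 6.16 and 8.39 FPKM in NorEV. Both enzymes were low in HypEV 1 and NorEV 1, and Gad2 also in HypEV 3. Lhx6, a factor of interneurons from the medial ganglionic eminence, had 3.62, 14.1 and 5.002 FPKM in HypEV and 6.05, 12.2 and 14.6 FPKM in NorEV. Nkx2-1, which acts above Lhx6, had 0.332, 1.23 and 0 FPKM in HypEV, against 0, 0.252 and 1.19 FPKM in NorEV. It was the lowest of the 39 genes, with at most 5 fragments in a library, and a count of 0 allows up to 3 fragments, or 0.499 to 0.977 FPKM for this gene.

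The DLX factors were also low. Dlx1 had 2.50, 9.09 and 0.921 FPKM in HypEV, against 7.57, 6.88 and 6.19 FPKM in NorEV, with HypEV 2 above and the other HypEV libraries below NorEV. Dlx5 averaged 4.88 ± 2.09 FPKM in HypEV and 3.82 ± 4.01 FPKM in NorEV, where NorEV 1 had 0 fragments, which allows up to 1.93 FPKM. Dlx6 averaged 1.89 ± 1.2996 FPKM in HypEV and 2.50 ± 1.08 FPKM in NorEV, and Dlx2 1.44 ± 0.839 FPKM in HypEV and 2.58 ± 1.09 FPKM in NorEV (SD, n = 3 each). The 4 genes are paralogs that share the homeobox, so it matters whether their fragments can be told apart. The 60 bases around the 4 codons of the recognition helix that nearly all homeodomains share, in capitals, are shown from GENCODE M21 transcripts (GRCm38) for the 4 DLX genes and for Lhx6.
Dlx1: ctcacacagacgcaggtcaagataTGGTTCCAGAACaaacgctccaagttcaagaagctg
Dlx2: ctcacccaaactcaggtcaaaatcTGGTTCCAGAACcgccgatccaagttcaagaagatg
Dlx5: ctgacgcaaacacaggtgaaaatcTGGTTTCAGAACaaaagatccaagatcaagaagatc
Dlx6: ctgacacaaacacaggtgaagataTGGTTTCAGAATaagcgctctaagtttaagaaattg
Lhx6: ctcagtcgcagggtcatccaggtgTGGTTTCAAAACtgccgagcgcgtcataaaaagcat
Within these 60 bases the DLX genes were 73.3% (Dlx2 and Dlx6) to 83.3% (Dlx1 and Dlx2) identical, but no pair of their transcripts shared a run longer than 23 bases. Dlx1 and Dlx2 lie beside each other on chromosome 2 (71528113 to 71533981 and 71543408 to 71546754), as do Dlx6 and Dlx5 on chromosome 6 (6863334 to 6868568 and 6877805 to 6882085). Dlx1as, on the opposite strand, covers 6.21% of the exon bases of Dlx1 and was higher than Dlx1 in all 6 libraries.

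The interneuron peptides swung between libraries. Npy, neuropeptide Y, had 1.65, 15.9 and 1.34 FPKM in HypEV 1, 2 and 3, against 4.85, 28.8 and 22.5 FPKM in NorEV 1, 2 and 3. It was low in HypEV 1, HypEV 3 and NorEV 1, the libraries with most Gm23935, and these values rest on 2, 1 and 3 fragments. Sst, somatostatin, had 2.34, 0 and 15.2 FPKM in HypEV, against 4.58, 14.2 and 16.8 FPKM in NorEV. The value of 0 stood in HypEV 2, where Npy was highest among HypEV. Vip, vasoactive intestinal peptide, had 3.14, 7.92 and 2.69 FPKM in HypEV and 7.23, 8.66 and 6.34 FPKM in NorEV.

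Pvalb, parvalbumin, which cortical interneurons are known to switch on only after birth, was high in 1 library. It had 0, 5.66 and 5.42 FPKM in HypEV, against 17.8, 0.724 and 0.685 FPKM in NorEV, where NorEV 1 had 19 fragments and NorEV 2 and 3 had 1 each. Calb2, calretinin, was steadier at 9.46, 12.1 and 13.8 FPKM in HypEV and 18.5, 10.9 and 11.7 FPKM in NorEV. Reln, reelin, secreted by Cajal-Retzius cells and some interneurons, had 6.35, 14.5 and 9.58 FPKM in HypEV, against 14.2, 14.3 and 14.9 FPKM in NorEV. With 148 to 260 fragments per library it is among the best measured of the inhibitory genes.

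The order of means, from the highest, began with Celf4, Uchl1, Nefm, Rbfox3, Map2 and Mapt. Means over the 6 libraries were 35.0 FPKM for Celf4, 19.4 FPKM for Uchl1 and 15.2 FPKM for Nefm. The ranges of all neighbours in the order overlapped, those of Celf4 and Uchl1 included, at 18.6 to 55.7 and 6.74 to 38.9 FPKM. The lowest were Dcx, Dlx6, Dlx2 and Nkx2-1, at means of 2.81, 2.19, 2.01 and 0.501 FPKM. Levels are compared between genes per kilobase of the gene.

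The class medians followed this order only in part. By class median the pan-neuronal genes stood highest in all 6 libraries. The cytoskeletal median was 0.873 to 2.34 times that of the excitatory and inhibitory genes together, and above it in 4 libraries. It was above the inhibitory median in 3. Pan-neuronal genes had medians of 6.74, 15.3 and 11.3 FPKM in HypEV 1, 2 and 3, against 11.9, 17.3 and 21.9 FPKM in NorEV 1, 2 and 3, and stood 1.34 to 2.12 times as high as the non-neural list. Cytoskeletal genes had 6.17, 6.67 and 9.06 FPKM in HypEV and 7.85, 6.33 and 7.72 FPKM in NorEV, or 0.526 to 1.39 times the non-neural list. Excitatory genes had 4.07, 7.48 and 3.92 FPKM in HypEV and 7.08, 6.28 and 7.36 FPKM in NorEV. Inhibitory genes had 3.25, 8.50 and 3.44 FPKM in HypEV and 5.45, 7.77 and 8.19 FPKM in NorEV. Both identity classes lay below the non-neural list in all 6 libraries, at 0.522 to 0.865 times its median for excitatory and 0.529 to 0.793 times for inhibitory genes. The excitatory median was above the inhibitory in 3 libraries (HypEV 1, HypEV 3 and NorEV 1) and below it in the other 3.

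**Figure D2:**
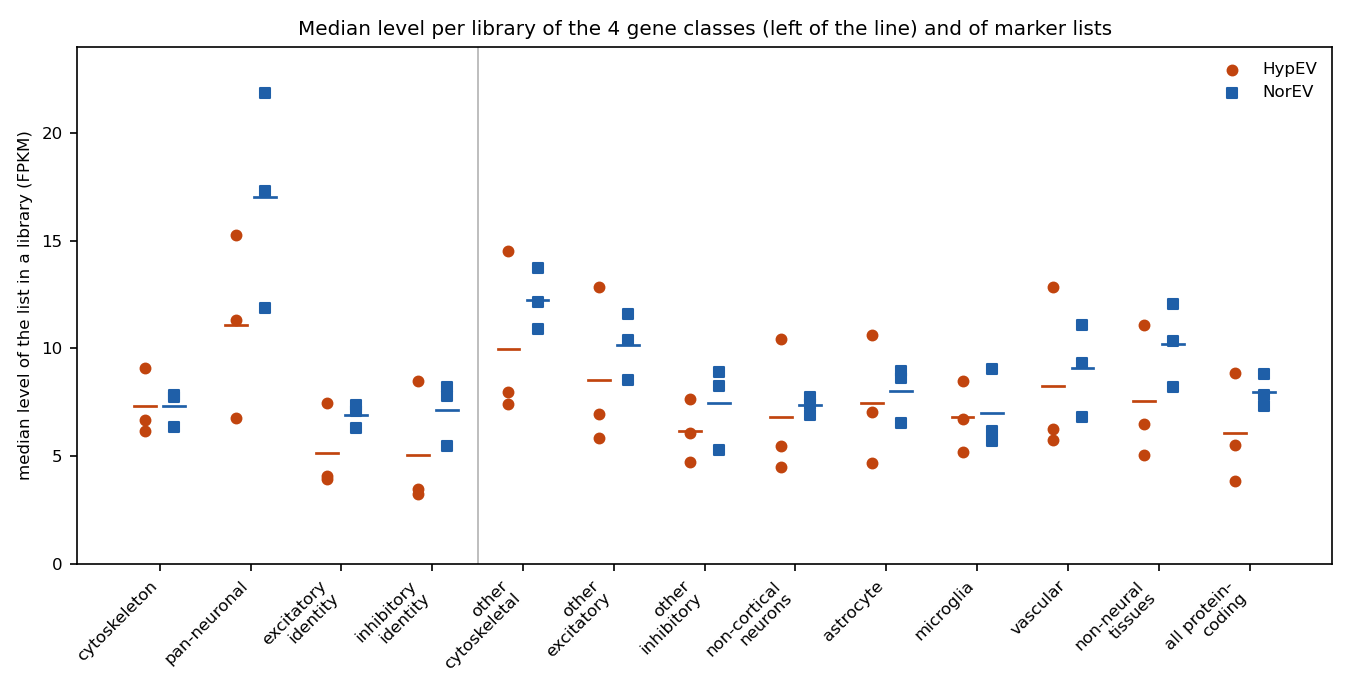
Median FPKM of each gene list in every HypEV library (circles) and NorEV library (squares), with lines at group means; the 4 classes described here are left of the vertical line and other lists right of it. The pan-neuronal class has the highest group mean in NorEV. In both groups the means of the identity classes lie below those of the astrocyte, vascular and non-neural lists. They also lie below the microglia list, except for the inhibitory class in NorEV.

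Markers of other cells that a cortical culture could hold were also detected. Over the 6 libraries the list medians were 4.66 to 10.6 FPKM for astrocytes and 5.20 to 9.03 FPKM for microglia. They were 5.73 to 12.8 FPKM for vessels and fibroblasts and 3.06 to 6.16 FPKM for oligodendrocytes. The median of all 39 genes was 3.76 to 7.92 FPKM. The 10 astrocyte genes added to 56.6 to 115 FPKM in HypEV and 98.3 to 114 FPKM in NorEV, and none was listed at 0. The 10 microglia genes added to 68.9 to 126 FPKM in HypEV and 99.96 to 108 FPKM in NorEV, with Tmem119 and C1qb at 0 in HypEV 1. The 13 genes of vessels and fibroblasts added to 64.2 to 169 FPKM in HypEV and 159 to 228 FPKM in NorEV, with Cldn5 at 0 in HypEV 3 and NorEV 1. The 10 oligodendrocyte genes added to 36.6 to 80.9 FPKM in HypEV and 60.8 to 84.3 FPKM in NorEV, with Olig1 and Olig2 at 0 in HypEV 3 and Sox10 at 0 in NorEV 1. The part of such cells in the values of the 39 genes was not tested. The neuronal markers of the labelled cell type did not all stand alike to the non-neural list. The pan-neuronal class was above it in all 6 libraries and both identity classes below it, as given above. The cytoskeletal class was above it in HypEV 1 and HypEV 3 alone, at 0.526 to 1.39 times its median over the 6 libraries. A list of 29 further cytoskeletal genes, chosen by function and including Actb, Actg1 and Cfl1, was above it in all 6 libraries. The medians of these genes were 7.40, 14.5 and 7.98 FPKM in HypEV 1, 2 and 3, and 10.9, 12.2 and 13.7 FPKM in NorEV 1, 2 and 3. The 21 further excitatory genes were above the non-neural list in 5 of the 6 libraries, with 5.84, 12.8 and 6.95 FPKM in HypEV and 8.52, 10.4 and 11.6 FPKM in NorEV. The 23 further inhibitory genes were below it in all 6, with 4.71, 7.66 and 6.06 FPKM in HypEV and 5.29, 8.25 and 8.90 FPKM in NorEV. The 15 further pan-neuronal genes, with 5.87, 10.9 and 8.77 FPKM in HypEV and 12.1, 10.4 and 11.8 FPKM in NorEV, were above it in 4. Slc17a7, a vesicular glutamate transporter of cortical excitatory neurons, had 13.5, 18.6 and 25.1 FPKM in HypEV and 19.0, 17.7 and 14.6 FPKM in NorEV.

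HypEV was compared with NorEV over 44125 genes with limma, and none of the 38 tested genes of the 4 classes passed an adjusted p of 0.05 (Benjamini-Hochberg over all tested genes). Of all tested genes 7 passed, which is 0.0159%. At an unadjusted p under 0.05 stood 2 of the 38 genes, Uchl1 and Neurod1, both lower, against 6.76% of all tested genes, or 6.13% counting lower ones alone. The log2 fold change of Uchl1 was -1.17 ± 0.49 SE and that of Neurod1 was -1.39 ± 0.57 SE (adjusted p = 0.720 for both). Under limma-voom on the recovered fragments 0 of the members in that test passed, against 0.555% of its genes, or 0.142% without Gm23935 and its copies. Rbfox1, Tle4 and Sst, whose fragments could not be recovered, and Nkx2-1 were not in it. No member passed in any of the other fits, where the smallest adjusted p was 0.226, for Npy without HypEV 2, in a range for that gene of 0.226 to 0.969.

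By sign, 11 of the 38 genes were higher and 27 lower in HypEV, and 74.9% of all tested genes were lower. Over all tested genes the log2 fold change had a median of -0.44, so values are also given against it. In this sense 24 of the 38 genes lay above and 14 below. All 3 HypEV libraries were below all 3 NorEV libraries for 3 of the 38 genes, Uchl1, Mapt and Neurod1, where 10.8% of all tested genes were, and above them for 0, where 1.1% were. A count of 3 in 38 is near that background.

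The classes can be set side by side. Of the 11 cytoskeletal genes 5 were higher and 6 lower, with a median log2 fold change of -0.07, which is 0.38 above that of all tested genes, with 8 of the 11 above it. Leaving out 1 library gave 0.18 (without NorEV 2) to 0.69 (without HypEV 2), and 0.21 without HypEV 3. The highest fold changes were those of Stmn1 (0.33 ± 0.46 SE), Gap43 (0.30 ± 0.48 SE) and Nefm (0.29 ± 0.40 SE), and the lowest those of Ina (-0.91 ± 0.72 SE) and Tubb3 (-0.71 ± 0.54 SE). Of the 5 pan-neuronal genes 1, Celf4, was higher (0.29 ± 0.50 SE) and 4 lower, with a median of -0.22, which is 0.22 above that of all tested genes, with 3 of the 5 above it (-0.079 without NorEV 1, 0.038 without NorEV 3, 0.33 without NorEV 2). Of the 9 excitatory genes 4 were higher and 5 lower, with a median of -0.17, from -1.39 for Neurod1 to 0.56 ± 0.66 SE for Neurod6. That median is 0.27 above that of all tested genes, with 7 of the 9 above it (0.12 without NorEV 2, 0.41 without NorEV 1, 0.42 without HypEV 3). Of the 13 tested inhibitory genes 1, Dlx5, was higher (0.72 ± 0.85 SE) and 12 lower, with a median of -0.54. Against all tested genes, most of which were also lower, 6 of the 13 lay above the median and 7 below, and the class median was -0.10 (-0.15 without NorEV 3, -0.046 without HypEV 3, -0.016 without NorEV 1, 0.0053 without HypEV 2). The lowest were Npy (-1.76 ± 0.91 SE) and Sst (-1.60 ± 0.99 SE). None of these genes passed, and the differences between classes were not tested.

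**Figure D3:**
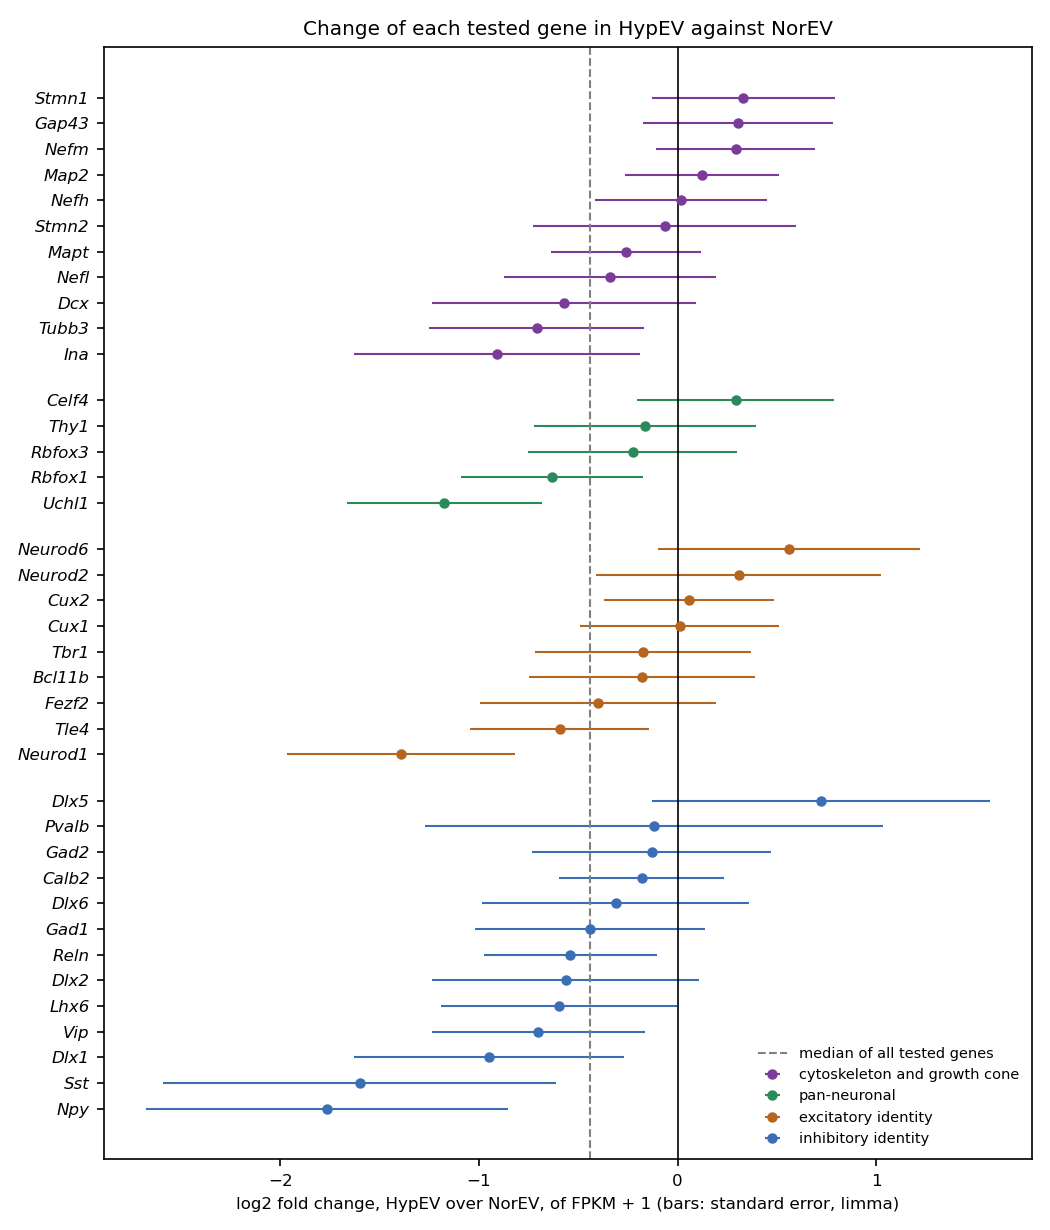
Log2 fold change of FPKM + 1 in HypEV over NorEV for the 38 tested genes by class, with bars of 1 standard error from limma, a solid line at 0 and a dashed line at the median of all tested genes (-0.44). The cytoskeletal genes lie mostly right of the dashed line, Npy, Sst, Neurod1 and Uchl1 farthest left, and no gene passed the threshold.

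Cytoskeletal and identity genes parted in some libraries. The median log2(FPKM + 1) level of the cytoskeletal class minus that of the excitatory and inhibitory genes together was 0.66, -0.17 and 1.05 in HypEV 1, 2 and 3, against 0.33, -0.01 and 0.01 in NorEV 1, 2 and 3. The libraries with a clearly positive difference were the 3 in which Gm23935 took most fragments. In HypEV 2, NorEV 2 and NorEV 3 the classes were level. Among the libraries rich in Gm23935 the difference did not follow the share, which was 49.5% in HypEV 1 and 24.4% in HypEV 3. Both of these are HypEV libraries, so share and group are not separate here. The part of the Gm23935 share in the group difference was not tested. When the 3 libraries richest in Gm23935 were left out, a choice made after seeing the data, HypEV 2 alone remained of HypEV. The median log2 fold change of the cytoskeletal class then lay -0.12 from that of all tested genes, against 0.38 with all libraries. The libraries left out were those with the positive differences, so this fall adds no separate evidence.

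**Figure D4:**
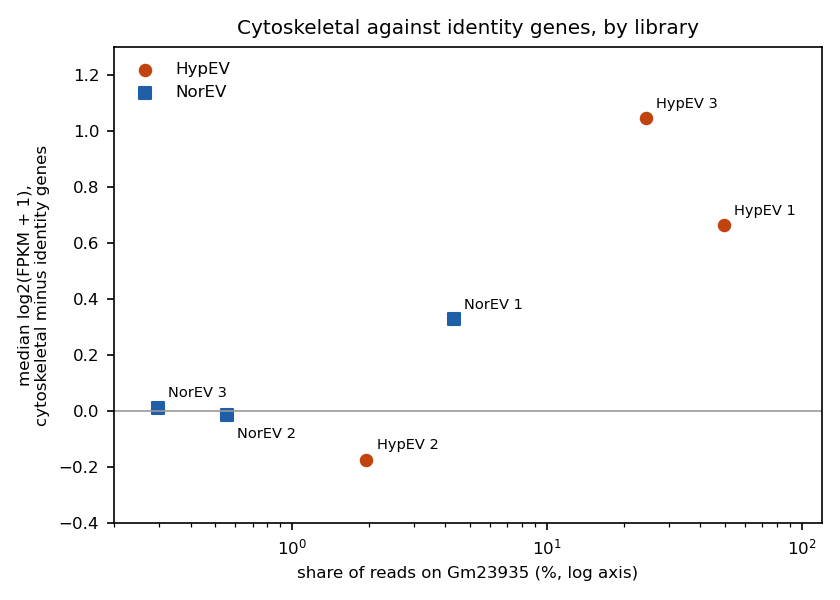
Median log2(FPKM + 1) level of the 11 cytoskeletal genes minus that of the 23 excitatory and inhibitory genes (vertical axis) against the percent of fragments on Gm23935 (log axis), 1 point per library. HypEV 3, HypEV 1 and NorEV 1, with the highest Gm23935 shares, have differences of 1.05, 0.66 and 0.33, and the other 3 libraries lie between -0.17 and 0.01.

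Other genes of the same systems, from lists chosen by function, also had no member past the threshold. Of 29 further cytoskeletal genes 5 were higher and 24 lower, and 15 had a fold change above -0.44. The smallest p-values were those of Dpysl2, a CRMP protein that binds tubulin (8.16, 9.03 and 7.03 FPKM in HypEV, against 14.2, 22.1 and 17.02 FPKM in NorEV), and Tubb4a, a beta-tubulin (3.35, 2.48 and 1.70 FPKM in HypEV, against 5.34, 6.99 and 11.1 FPKM in NorEV). Both had an adjusted p of 0.720 in limma and groups that did not overlap. Actb and Tuba1a, whose mRNAs are among the most abundant of young neurons, had 1.22, 11.2 and 8.28 FPKM and 4.25, 17.6 and 4.14 FPKM in HypEV, against 6.67, 7.74 and 5.92 FPKM and 5.0008, 7.30 and 7.31 FPKM in NorEV. These were picked with their values known.

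Of 15 further pan-neuronal genes 2 were higher and 13 lower, and the smallest p was that of Scg2, secretogranin II, a protein of dense-core vesicles (2.41, 2.20 and 4.52 FPKM in HypEV, against 5.82, 9.002 and 10.4 FPKM in NorEV, adjusted p = 0.720 in limma). Nsg2, of neuronal endosomes, had 4.59, 12.05 and 1.35 FPKM in HypEV and 9.81, 10.7 and 13.4 FPKM in NorEV. Of 21 further excitatory genes 8 were higher and 13 lower. Foxp2, a factor of deep-layer neurons, had 13.2, 29.3 and 13.1 FPKM in HypEV, against 24.4, 42.3 and 34.8 FPKM in NorEV, and Pou3f3 had 13.4, 8.68 and 15.3 FPKM in HypEV, against 10.4, 5.35 and 5.06 FPKM in NorEV. Of 23 further inhibitory genes 7 were higher and 16 lower. Sp9, a factor of ganglionic eminence interneurons, had 4.03, 1.53 and 1.17 FPKM in HypEV, against 3.04, 8.46 and 5.63 FPKM in NorEV, and Erbb4, a neuregulin receptor of interneurons, had 1.98, 5.75 and 1.51 FPKM in HypEV, against 4.87, 6.23 and 5.95 FPKM in NorEV.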

How the data were processed

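The authors deposited 1 table per library with FPKM values of 53379 Ensembl genes, counted with HTSeq per the names of the deposited files; the aligner, build, annotation and strand setting are not given in the sources used here. Trizol was the RNA reagent and a mini longRNA-seq kit from Epibiotek the library kit, per the labels' protocols. Symbols and lengths came from GENCODE M21 (GRCm38), where 53274 identifiers were found and 105 were not. With the longest transcript of each gene, 95.96% of values above 0 were whole fragments within 0.01, as were all values of 51485 genes and of 36 of the 39 genes reported (not Rbfox1, Tle4 and Sst). The limits given for a count of 0 cover counting error only. SE values are those of limma, and SD values are between the libraries of a group. Spread within groups is set against counting error by chi-square with totals less Gm23935.

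The 44125 genes whose mean reached 1 FPKM were tested as log2(FPKM + 1) with limma 3.58.1 (R 4.3.3; eBayes with trend, two-sided, no covariates). All members are named, and of other lists the 2 smallest p-values; some items are not reported here. The members and lists were chosen with earlier results of these data known. HypEV is the group labelled OGD/R and NorEV the control. Alternatives were another pseudocount, filter, scaling or trend, limma-voom on recovered fragments, a replicate block and leaving out libraries. Copies of Gm23935 were found with blastn 2.17.0. The test was tried on simulated data. The rest used matplotlib 3.10.9, scipy 1.17.1, Python 3.11.15, numpy 2.4.6 and pandas 2.3.3.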

Additional observations from a re-analysis of the deposited data

How the results depend on the processing

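No member was called under any of the 17 alternative fits. The count of called genes over all tested genes, 7 as reported, was 0 with each library centred on its median, without a filter, without a trend, with a pseudocount of 0.1 or 5, with the replicate block and when the 3 libraries richest in Gm23935 were left out (chosen after seeing the data; 1 HypEV library remains and is assumed to vary like the others), 235 in limma-voom and 60 in limma-voom without the Gm23935 family, and 0 to 71 with 1 library left out (71 without HypEV 2). Whether the replicate numbers pair the libraries could not be told from the values. Deviations from the group means correlated at 0.0446, 0.1017 and -0.0582 between libraries with the same number. HypEV 1 and HypEV 2 correlated best with their own number, and HypEV 3 with NorEV 1 (0.1064). The replicate block changed no call of a member. Of the class medians against all tested genes, the cytoskeletal one was -0.12 without those 3 libraries and 0.18 to 0.69 with 1 library left out, the excitatory one 0.12 to 0.42, the inhibitory one -0.15 to 0.0053, and the pan-neuronal one -0.079 to 0.33 with 1 library left out (-0.079 without NorEV 1).

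Of 631 values of single members against the median of all tested genes, 591 kept the sign reported and 40 did not, over 17 members; the causes were not tested. Without a filter the values with the other sign were -0.0051 for Nefl, -0.063 for Fezf2 and -0.10 for Gad1. Gad1 was also -0.014 in limma-voom, -0.061 with a pseudocount of 5 and -0.079 after quantile normalization. Dlx2 was 0.0074 with a pseudocount of 5 and 0.057 after quantile normalization, and Pvalb -0.037 with a pseudocount of 0.1. Without the 3 libraries richest in Gm23935 the values were -0.45 for Mapt, -0.69 for Stmn2, -0.21 for Nefh, -0.25 for Gad1, 0.39 for Dlx1, -0.73 for Dlx6, 0.044 for Lhx6 and 0.053 for Vip. With 1 library left out the ranges were -0.54 to 0.026 for Tubb3, -0.029 to 0.53 for Mapt, -0.29 to 0.082 for Dcx, -0.25 to 1.12 for Stmn2, -0.34 to 0.41 for Nefl, -0.79 to 0.071 for Ina, -0.079 to 0.42 for Rbfox3, -0.34 to 0.58 for Fezf2, -0.26 to 0.28 for Gad1, -0.87 to 0.011 for Dlx1, -0.47 to 0.070 for Dlx2, -0.45 to 0.66 for Dlx6, -0.41 to 0.0020 for Lhx6, -2.23 to 0.089 for Sst and -0.33 to 1.57 for Pvalb. Members with few fragments, such as Nkx2-1, Dlx2 and Dlx6, are limited by depth.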

Other observations

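Genes that mark neurons outside the cortex were listed at levels like those of the cortical genes. The 23 genes of dopaminergic, serotonergic, cholinergic, sensory, spinal, retinal, hypothalamic and cerebellar neurons had medians of 4.51, 10.4 and 5.48 FPKM in HypEV 1, 2 and 3, against 7.43, 7.74 and 6.88 FPKM in NorEV 1, 2 and 3. Of the 22 tested, 5 were higher and 17 lower in HypEV, and none passed in limma. Isl1, a factor of motor and sensory neurons, had 26.4, 27.2 and 38.8 FPKM in HypEV, against 59.7, 48.1 and 47.9 FPKM in NorEV, above Neurod2 and Tbr1 in all 6 libraries. Prdm12, of pain-sensing neurons, had 3.97, 14.0 and 7.05 FPKM in HypEV, against 18.9, 17.8 and 19.2 FPKM in NorEV (adjusted p = 0.720, limma).

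Of the remaining lists the genes named by the smallest p were Slc1a3 and S100b (astrocytes), Ptprc and Cx3cr1 (microglia), Olig2 and Mag (oligodendrocytes), Acta2 and Kdr (vessels and fibroblasts), Top2a and Nes (progenitors), Alas2 (erythroid cells) and Tnp1 and Muc2 (non-neural tissues). Acta2, smooth muscle actin, had 8.13, 26.8 and 7.23 FPKM in HypEV, against 51.9, 42.9 and 36.4 FPKM in NorEV (adjusted p = 0.622, limma). Kdr, a VEGF receptor of endothelium, had 6.23, 23.0 and 9.84 FPKM in HypEV, against 24.7, 45.98 and 31.9 FPKM in NorEV (adjusted p = 0.712, limma). In limma-voom on the recovered fragments Kdr was lower, with a log2 fold change of -1.65 ± 0.41 SE and an adjusted p of 0.020, and without Gm23935 and its copies its adjusted p was 0.123. Erythroid genes added to 34.9 to 85.1 FPKM in HypEV and 64.8 to 127 FPKM in NorEV, and progenitor genes to 74.7 to 127 FPKM in HypEV and 105 to 149.9 FPKM in NorEV.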
